A study of Mus musculus with 12 samples.

Results

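The integrins described here are 9 receptor subunits, Itga7, Itga4, Itgal, Itgae, Itgav, Itgb1, Itgb2, Itgb3 and Itgb7, and all 9 were rows of a deposited table of 13283 mouse genes. They were found by gene symbol. The set was chosen by results of these same libraries, and Itga7 in particular was selected on its lower level in cells without FOXO1, so its genotype values are a description and carry no test. The other 8 subunits were listed with those results known.

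The libraries came from cytotoxic T lymphocytes (CTL), the killer cells that CD8+ T cells become after activation, grown from female mice of 11 to 27 weeks of age. All mice carried GzmB cre, a Cre recombinase driven by the granzyme B promoter, which is active in effector T cells. The WT mice had only this Cre and an untagged FOXO1, and the FOXO1-GFP KO mice also carried a GFP-tagged Foxo1 whose exon 2 is flanked by loxP sites, so that the control cells lacked the tag as well as the deletion. Lymph node or spleen cells were activated through CD3 and CD28 for 48 h, expanded with IL-2 (20 ng/mL) plus IL-12 (2 ng/mL), and cultured for the last 24 h with or without 10 µM IC87114, an inhibitor of the PI3K p110δ catalytic subunit (PI3Kdi). Cultures without PI3Kdi received the vehicle DMSO. CTL of the KO were sorted as live CD8+ cells without GFP and those of the WT as live CD8+ cells, so the sort gate differed with genotype. The 4 groups, WT, WT+PI3Kdi, FOXO1-GFP KO and FOXO1-GFP KO+PI3Kdi, held 3 biological replicates each. Differences in mRNA per cell and in the share of cells that make an mRNA cannot be told apart in such bulk samples.

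Integrins are heterodimers of an alpha and a beta chain that hold cells to other cells and to the extracellular matrix. In T cells, αLβ2 (LFA-1) binds ICAM molecules at the contact with a target cell, α4β1 and α4β7 bind VCAM-1 and MAdCAM-1 on vessel walls, and αEβ7 (CD103) binds E-cadherin of epithelia. PI3K p110δ signalling through AKT keeps the transcription factor FOXO1 out of the nucleus, and inhibition of the kinase lets FOXO1 return to it, so the comparison of inhibitor and knockout addresses which changes with PI3Kdi need FOXO1.

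Foxo1 itself, the targeted gene, was between 5.77 and 10.46 FPKM (fragments scaled to exon length and library size) in the 6 WT libraries and between 0.58 and 1.75 FPKM in the 6 KO libraries. Library depth, here the effective size after the study's TMM scaling between libraries, was recovered from the spacing of the FPKM values. It lay between 12863500 and 48013500 reads per library, with the highest value in WT replicate 2. The 8 CD8 T cell markers together were at 8687 to 12640 FPKM. Of the markers of other cells, 6 of 12 for B cells were listed with a sum of 8.69 to 27.1 FPKM, 5 of 12 for myeloid cells with 15.3 to 27.4 FPKM, 4 of 6 for gamma delta T cells with 104 to 303 FPKM, 3 of 4 for CD4 T cells with 4.96 to 8.24 FPKM and 2 of 4 for NK cells with 84.1 to 114 FPKM. A single marker was listed of 8 for platelets (Itga2b, 0.09 to 0.38 FPKM) and of 6 for mast cells (0.19 to 0.62 FPKM), and 2 of 7 for fibroblasts and endothelium (0.07 to 0.25 FPKM).

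Promoter sequence was at hand for 4 of the 9 members, Itga4, Itgav, Itgb1 and Itgb7, in RefSeq for GRCm38.p6. The 250 bases before the transcription start are shown for Itga4 and Itgb7, because these partners of one receptor were both higher with PI3Kdi in every pair of libraries. Capitals mark AAACA or its reverse complement TGTTT, the core of the site that forkhead factors such as FOXO1 bind. The Itga4 stretch is chr2:79255176-79255425 on the plus strand and the Itgb7 stretch is chr15:102231936-102232185 on the minus strand.
Itga4: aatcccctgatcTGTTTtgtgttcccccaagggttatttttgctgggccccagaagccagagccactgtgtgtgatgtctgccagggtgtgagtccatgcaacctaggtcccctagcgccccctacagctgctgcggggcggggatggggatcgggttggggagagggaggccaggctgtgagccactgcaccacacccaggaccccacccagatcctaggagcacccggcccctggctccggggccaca
Itgb7: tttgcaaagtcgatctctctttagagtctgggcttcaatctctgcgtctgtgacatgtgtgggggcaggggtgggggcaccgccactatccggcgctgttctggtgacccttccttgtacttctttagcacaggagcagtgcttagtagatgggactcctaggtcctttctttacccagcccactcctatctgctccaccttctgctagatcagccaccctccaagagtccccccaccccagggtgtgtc
The core began at position -238 from the start of Itga4 and was not in the Itgb7 window. It was also found at -244 of Itgav and not in the Itgb1 window, and on either strand it is in 46.4% of all 32851 promoter windows of this length. The longer site GTAAACA, read on both strands, was in none of the 4 windows and is in 3.17% of all of them.

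Of the 9 subunits, 4 held most of the integrin mRNA of these CTL. Itgb2, Itgal, Itgb7 and Itgb1 together made up 94.7 to 96.5% of the summed FPKM of the 20 integrin subunits in the table. In WT libraries the order was Itgb2 (248 ± 43.9 FPKM, SD, n = 3), Itgal (189.7 ± 50.9), Itgb7 (141 ± 8.77), Itgb1 (104 ± 32.7), Itgav (16.4 ± 5.51), Itgb3 (3.84 ± 1.58), Itga7 (0.993 ± 0.493), Itga4 (0.757 ± 0.387) and Itgae (0.337 ± 0.177). The ranges of Itgb2 and Itgal overlapped, as did those of Itgb7 and Itgb1, of Itga7 and Itga4, and of Itga4 and Itgae, whereas every other neighbour in this order was separated from the next in all 3 libraries.

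The order of the most abundant subunits differed between groups. Itgb7 stood below Itgb2 and Itgal in WT and first in FOXO1-GFP KO+PI3Kdi at 224 ± 54.8 FPKM, although its range there overlapped that of Itgb2 (179 ± 29.7 FPKM). At the other end, Itga7 stood seventh in WT, eighth in WT+PI3Kdi and last in both KO groups, where its range did not reach that of Itgae, the next subunit up.

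**Figure D1:**
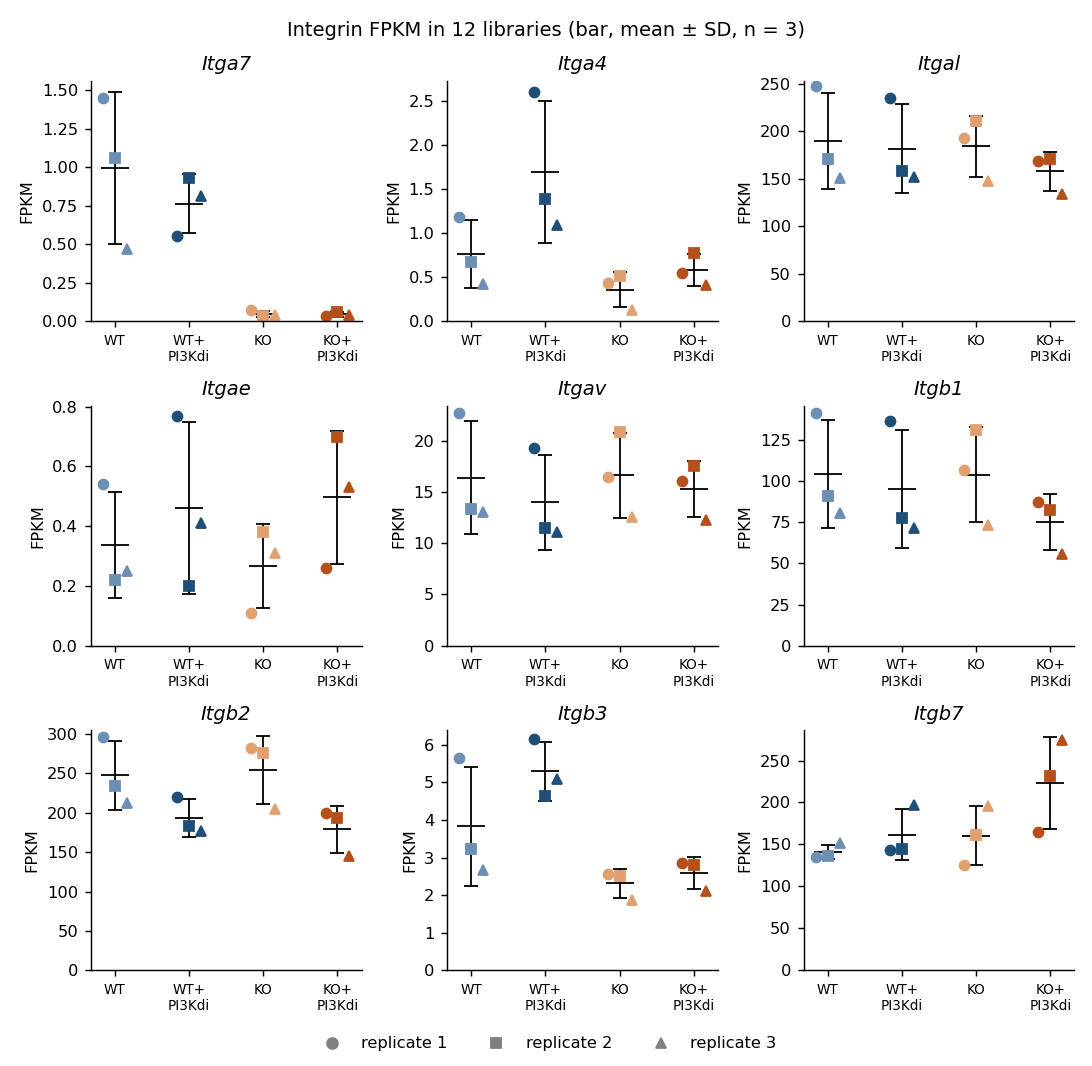
FPKM of the 9 integrin subunits in each of the 12 libraries by group (KO, FOXO1-GFP KO), with markers for the replicate number and bars for the mean ± SD of 3 libraries. Each panel has its own axis from 0; Itga7 lies between 0.47 and 1.45 FPKM in WT groups and between 0.03 and 0.07 FPKM in KO groups, while Itgal, Itgav, Itgb1 and Itgb2 overlap between genotypes.

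Itga7 encodes α7, which pairs with β1 to bind laminin and is best known from skeletal muscle. It is on chromosome 10 (GRCm38, 128933818 to 128958282, plus strand). Its level was 1.45, 1.06 and 0.47 FPKM in WT and 0.55, 0.93 and 0.81 FPKM in WT+PI3Kdi. It was 0.07, 0.03 and 0.04 FPKM in FOXO1-GFP KO and 0.03, 0.06 and 0.04 FPKM in FOXO1-GFP KO+PI3Kdi. All 6 WT libraries were above all 6 KO libraries.

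The reads behind these values, estimated from the depth and an exon length of 8092 bases, were 85 to 412 per WT library and 4 to 13 per KO library. The mean FPKM was 21.3-fold higher in WT than in KO without the inhibitor and 17.6-fold higher with it. On the log2(FPKM + 0.1) scale, which shrinks changes of low genes, the difference (KO minus WT) was -2.79 ± 0.32 (SE) without and -2.57 ± 0.32 with PI3Kdi. These sizes depend on the pseudocount, since with 1 FPKM added they were -0.90 and -0.75, and on reads with voom they were -4.31 and -4.12. As the contrast that selected it, this difference was not tested.

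PI3Kdi did not move Itga7 one way. In WT pairs it was lower with the inhibitor in replicates 1 and 2 and higher in replicate 3, and in KO pairs it was lower, higher and equal at the precision of the table. The fitted change with PI3Kdi was -0.25 with a 95% interval of -0.95 to 0.45 in WT and -0.03 with -0.73 to 0.67 in KO, so a change within these limits was not detectable.

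The B cell markers in the table, 6 of 12, differed as a sum between genotypes in the same direction as Itga7. Their summed level was 19.7 to 27.1 FPKM in WT libraries and 8.69 to 11.8 FPKM in KO libraries. Of the 6 listed, 3 (Ighm, Igkc and Jchain) were called lower in KO with PI3Kdi, and the other 3 were not called. The study listed Jchain among mRNAs of its sorted CTL that PI3Kdi raised in WT and that were lower in treated KO. The calls of Ighm and Igkc held in all 12 fits that left out a library and that of Jchain in 8, and with the replicate block that of Jchain was lost. Without PI3Kdi, Ighm was also called lower in KO (-1.60 ± 0.23, limma adjusted p = 0.0153), a call lost without replicate 1 or 2 of either group compared (adjusted p up to 0.0873). In KO with the inhibitor, Igkc had a value of 0 in all 3 libraries. The part of other cells in the Itga7 difference was not tested. Of the genes within 50 kb of Itga7, Gdf11 was 2.57 to 5.37 FPKM, Bloc1s1 1.23 to 2.73 FPKM and Cd63 0.10 to 0.19 FPKM over the 12 libraries, and none of them was called in a genotype comparison. Of 47 genes within 1 Mb, a window set after the values were seen, 1 was called, Dgka, lower in KO with PI3Kdi. Erbb3 (chromosome 10, 128567523 to 128589652), described next, is also in this window and was not called.

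The genes whose pattern over the 12 libraries was most like that of Itga7 were Plod2, Plcxd1, Dhx40, Arrb1 and Erbb3, by Pearson's r on log2(FPKM + 0.1). Plod2, a lysyl hydroxylase of collagen, had r = 0.98, with means of 15.7 and 13.8 FPKM in WT and WT+PI3Kdi and 6.50 and 6.27 FPKM in KO and KO+PI3Kdi. Plcxd1 had r = 0.97 and means of 1.31 FPKM in WT and 0.24 FPKM in KO. Arrb1, which encodes β-arrestin 1, had r = 0.97 and means of 8.51 and 7.57 FPKM in the WT groups against 1.81 and 2.63 FPKM in the KO groups. Dhx40 (r = 0.97) and Erbb3 (r = 0.95) differed less between genotypes, by -0.47 and -0.68 without PI3Kdi. These correlations share the 12 libraries and the genotype split that selected Itga7.

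Calls for the other members came from limma-trend fits over all 13283 genes, with a Benjamini-Hochberg adjusted p under 0.05 and a change over 1.5-fold. Without a term for the replicate, 193 genes (1.45%) were called between genotypes with PI3Kdi and 44 (0.331%) without it. In each of these comparisons 1 of the 9 members was called, Itga7, from which nothing is read. With the replicate number as a block within genotype, the shares of all genes called were 1.18% with and 0.233% without PI3Kdi, and the members called were 1 and 0.

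Among the 9 members, Itgb3 was the only one beside Itga7 that kept WT and KO libraries apart both with and without the inhibitor. Itgb3 encodes β3, which pairs with αv to bind vitronectin and osteopontin and with αIIb on platelets. It was 5.64, 3.22 and 2.66 FPKM in WT and 2.56, 2.51 and 1.87 FPKM in KO. With PI3Kdi it was 6.17, 4.64 and 5.08 FPKM in WT and 2.87, 2.80 and 2.10 FPKM in KO. The lowest WT library stood just above the highest KO library without the inhibitor and well above it with the inhibitor.

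The genotype difference of Itgb3 did not pass the test. It was -1.01 ± 0.25 with PI3Kdi (limma adjusted p = 0.0952) and -0.65 ± 0.25 without it (adjusted p = 0.584). Leaving out WT replicate 1, the highest library of its group, gave an adjusted p of 0.0199 with PI3Kdi at the same size. Over all alternatives the adjusted p with PI3Kdi ran from 0.00948 to 0.32. Itga2b, the platelet partner of Itgb3, had a mean of 0.26 FPKM in WT and 0.153 FPKM in KO. With PI3Kdi its order was reversed, with means of 0.133 FPKM in WT and 0.21 FPKM in KO. The gene most like Itgb3 was Icos, a costimulatory receptor (r = 0.99), with means of 38.6 and 51.4 FPKM in the WT groups and 22.5 and 25.1 FPKM in the KO groups.

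Itga4 encodes α4, the chain through which T cells bind VCAM-1, fibronectin and MAdCAM-1. Its level was 1.18, 0.67 and 0.42 FPKM in WT and 2.60, 1.38 and 1.09 FPKM in WT+PI3Kdi. It was 0.43, 0.51 and 0.13 FPKM in KO and 0.55, 0.77 and 0.41 FPKM in KO+PI3Kdi. With PI3Kdi the KO libraries all lay below the WT libraries, whereas without it KO replicates 1 and 2 reached into the WT range. The genotype difference was -1.35 ± 0.44 with PI3Kdi (limma adjusted p = 0.234) and -0.93 ± 0.44 without (adjusted p = 0.807), and neither passed. Over all alternatives the adjusted p with PI3Kdi ran from 0.02 to 0.663, and 1 of 8 settings called it. The study itself, which fitted counts, listed Itga4 among mRNAs raised by PI3Kdi in WT and lower in treated KO than in treated WT.

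Between genotypes, 3 of the 9 members had libraries that did not overlap with PI3Kdi (Itga7, Itga4 and Itgb3) and 2 without it (Itga7 and Itgb3). Over all genes these shares were 14.8% and 10.3%. The 6 remaining members, Itgal, Itgae, Itgav, Itgb1, Itgb2 and Itgb7, overlapped in both. Their genotype differences without PI3Kdi lay between -0.27 for Itgae and 0.17 for Itgb7, and the 95% interval of Itgb2, the narrowest of them, was -0.36 to 0.43. With PI3Kdi, Itgb7 was 0.45 ± 0.21 higher in KO (adjusted p = 0.487).

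**Figure D2:**
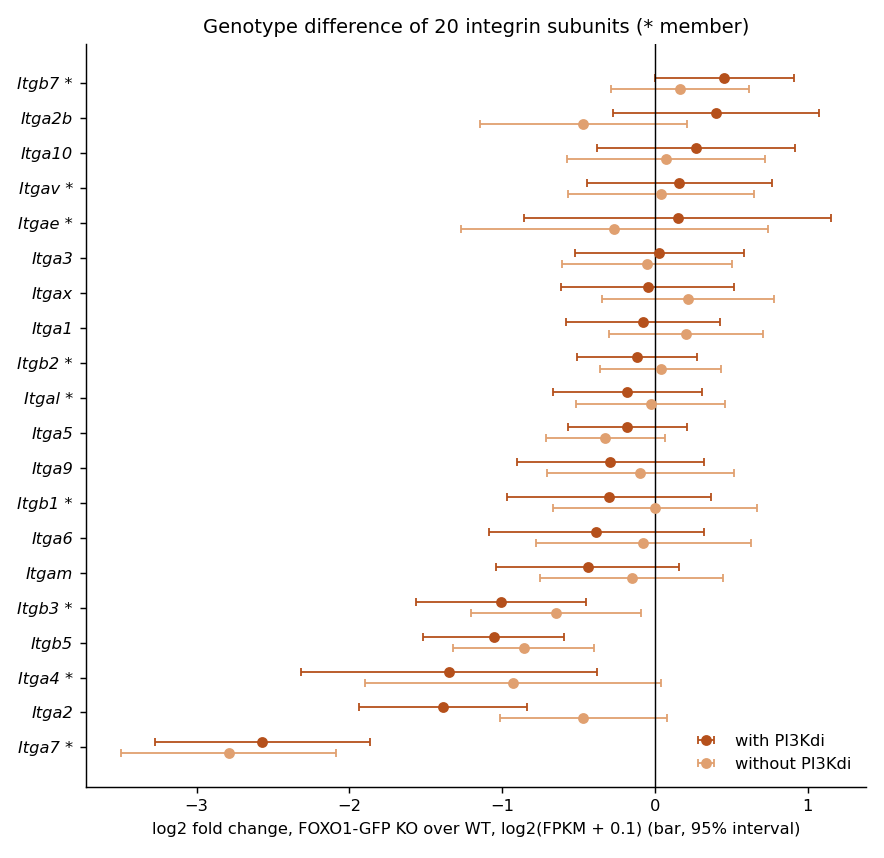
Fitted genotype difference, FOXO1-GFP KO minus WT on log2(FPKM + 0.1), of the 20 integrin subunits in the table, with and without PI3Kdi and with 95% intervals. Members are marked with an asterisk; Itga7 has the lowest values (-2.57 and -2.79), and the intervals of Itgb3 and Itgb5 stay below 0 in both comparisons.

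With PI3Kdi, most members changed in 1 direction within pairs of libraries, while the groups with and without it mostly overlapped. Libraries with the same replicate number and genotype moved together, so each treated library was set against the same-numbered library without PI3Kdi. The labels do not say whether such libraries came from the same mouse. In all 6 pairs, Itga4, Itgb3 and Itgb7 were higher and Itgav, Itgb1 and Itgb2 lower with PI3Kdi, that is 6 of 9 members in the same direction throughout, against 23.2% of all genes. Itgae was higher in 5 of 6 pairs and Itgal lower in 5 of 6.

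No member was called for PI3Kdi in the fit without the block, in which 0.0979% of genes were called in WT and 0.0452% in KO. At the same thresholds the study, which fitted counts, reported more mRNAs changed by PI3Kdi in WT than this fit called. Among the 9 members, 1 in WT and 2 in KO had an unadjusted p under 0.05. With the replicate block within genotype the shares of genes called rose to 2.57% in WT and 2.79% in KO, and 1 member was called in each, Itga4 in WT and Itgae in KO. Groups with and without PI3Kdi did not overlap for 10.2% of genes in WT and 10.1% in KO, and among the members only for Itgb2 in KO.

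Itga4 had the largest rise of the members with PI3Kdi in WT. In WT pairs 1, 2 and 3 the change was 1.08, 0.94 and 1.19 on the log2 scale, and the fitted change of 1.07 had an adjusted p of 0.858 without the block and 0.00755 with it. Without WT replicate 3 or without WT+PI3Kdi replicate 1 the blocked call was lost, with adjusted p-values of 0.0504 and 0.0562, and over all alternatives the adjusted p ran from 0.000389 to 1.0. In KO pairs the change was 0.29, 0.51 and 1.15, and the fitted change of 0.65 missed the threshold with the block (adjusted p = 0.0583). Exons of Itga4 overlap those of Cerkl on the opposite strand, which was 0.37 to 0.77 FPKM, and whether counting used strand is not given in the sources used here.

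Itgae, the chain of CD103 that TGF-β is known to induce, was near the lower end of detection. Its level was 0.54, 0.22 and 0.25 FPKM in WT, 0.77, 0.20 and 0.41 FPKM in WT+PI3Kdi, 0.11, 0.38 and 0.31 FPKM in KO and 0.26, 0.70 and 0.53 FPKM in KO+PI3Kdi. These values stand for 11 to 68 reads a library. All 4 groups overlapped, but each KO pair rose, by 0.78, 0.74 and 0.62 on the log2 scale. The fitted change in KO, 0.71, had an adjusted p of 0.934 without the block and 0.0414 with it, and the blocked call held in 5 of the 12 fits that left out 1 library. It was lost without any 1 of the 6 KO libraries, where the adjusted p ran up to 0.155, and without WT replicate 1 (adjusted p = 0.0558). Over all alternatives it ran from 0.0376 to 1.0.

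Markers of gamma delta T cells, which can also carry CD103, moved with PI3Kdi as well. Their summed level was 113 to 177 FPKM in WT, 171 to 259 FPKM in WT+PI3Kdi, 104 to 167 FPKM in KO and 212 to 303 FPKM in KO+PI3Kdi. With the block, 2 of the 4 listed were called higher in WT and 3 in KO, all constant region genes of the T cell receptor gamma chain, which αβ T cells can transcribe too. Cd4 and the B cell gene Igkc (1.35 ± 0.33, limma adjusted p = 0.0293) were also called higher with PI3Kdi in WT with the block. Each was the only gene called of its list, of 3 CD4 T cell and 6 B cell markers. The CD4 T cell markers had a median change of -0.05 there. They summed to 6.65 to 8.24 FPKM in WT and 7.36 to 7.79 FPKM in WT+PI3Kdi. The B cell markers summed to 19.7 to 23.9 FPKM and 20.7 to 27.1 FPKM. The part of other cells in the changes of Itga4 and Itgae was not tested.

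The beta chains of the leukocyte integrins moved in opposite directions. Itgb2, the common chain of LFA-1 and the myeloid integrins, was 297, 234 and 212 FPKM in WT and 220.4, 183 and 177 FPKM in WT+PI3Kdi. In KO it was 282, 276 and 205 FPKM and in KO+PI3Kdi 199, 193 and 145 FPKM. The libraries of the KO groups did not overlap, and those of WT did. The change was -0.35 in WT and -0.50 in KO, with adjusted p-values of 1.0 and 0.761 without the block and 0.0142 and 0.00198 with it, in each case under the 1.5-fold limit.

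Itgb7, the partner of α4 and αE in gut-homing and epithelial receptors, was 135, 137 and 151 FPKM in WT and 144, 144 and 196 FPKM in WT+PI3Kdi. In KO it was 126, 161 and 195 FPKM and in KO+PI3Kdi 165, 231 and 274 FPKM. Each treated library stood above the same-numbered library without PI3Kdi, and both pairs of groups overlapped. Without the block the change was 0.18 in WT (95% interval -0.27 to 0.63) and 0.47 in KO (0.02 to 0.92), with limma adjusted p-values of 0.9997 and 0.924. With the block the intervals were -0.014 to 0.372 and 0.275 to 0.662, with adjusted p-values of 0.245 and 0.00883. Neither change reached 1.5-fold.

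**Figure D3:**
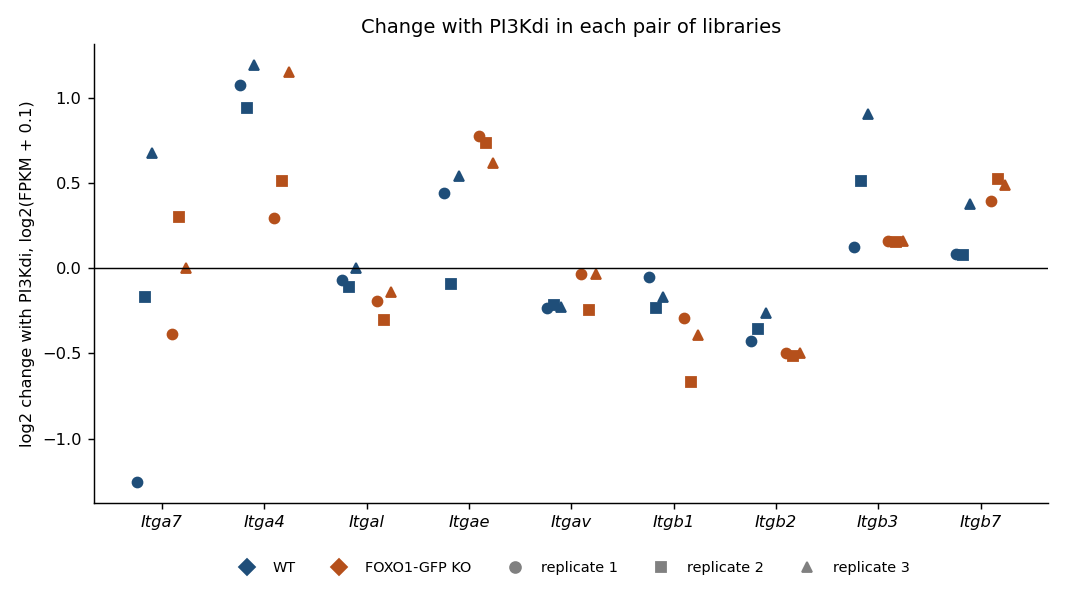
Change with PI3Kdi in each pair of libraries that share genotype and replicate number, as the difference of log2(FPKM + 0.1), for the 9 members. All 6 points lie above 0 for Itga4, Itgb3 and Itgb7 and below 0 for Itgav, Itgb1 and Itgb2, whereas the 3 WT points of Itga7 run from -1.25 to 0.68.

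Itgb3 also rose in each pair, by 0.13, 0.51 and 0.91 in WT and by 0.16, 0.15 and 0.16 in KO. The fitted change in WT was 0.52 (adjusted p = 0.0364 with the block, under 1.5-fold) and that in KO was 0.16 (adjusted p = 0.44 with the block). Itgb1, the beta chain of the matrix-binding VLA integrins, changed by -0.15 in WT and -0.45 in KO, the latter with an adjusted p of 0.0393 with the block. Its KO pairs fell by 0.29, 0.67 and 0.39 on the log2 scale.

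Itgal and Itgav, the 2 most abundant alpha chains, had small changes with PI3Kdi, although Itgav was lower in all 6 pairs. Itgal, the alpha chain of LFA-1, was 247, 170.4 and 151 FPKM in WT, 236, 158 and 152 FPKM in WT+PI3Kdi, 193, 211 and 148 FPKM in KO and 169, 171 and 134 FPKM in KO+PI3Kdi. The largest differences were between replicates, with replicate 1 highest in both WT groups and replicate 3 lowest in both KO groups. Its change with PI3Kdi was -0.06 in WT (95% interval -0.55 to 0.43) and -0.21 in KO (-0.70 to 0.27) without the block. With the block the interval in KO was -0.404 to -0.023 (limma adjusted p = 0.131). Itgav, whose receptors bind RGD ligands and can activate latent TGF-β, was 11.1 to 22.7 FPKM in the WT groups and 12.3 to 20.8 FPKM in the KO groups, and its change was -0.23 in WT and -0.10 in KO.

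Itgal, Itgav, Itgb1 and Itgb2 followed one another across the libraries, with r of 0.98 for Itgal and Itgb1, 0.90 for Itgal and Itgav, and 0.80 for Itgal and Itgb2 over 12 libraries. Itgb7 ran against them, with r of -0.76 with Itgb2 and -0.69 with Itgb1. Itga4 and Itgb3 had r = 0.93. The points of these correlations share library, depth and replicate. The genes closest to them were Hcfc1 for Itgal (r = 0.997), Ddx3x for Itgb1 (0.99), Ints4 for Itgb2 (0.99), Ccnd2 for Itgav (0.98), Pltp for Itgb7 (0.97), Maml3 for Itga4 (0.97) and Plekha2 for Itgae (0.95).

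No gene was called (0%) for a difference between the 2 genotypes in the response to PI3Kdi without the block, although 200 genes had an unadjusted p under 0.05, and 0.0226% of genes were called with the block. None of the members was among them in either fit. An unadjusted p under 0.05 was reached by 0 members without the block and by 1, Itgb7, with it. Without the block, the difference of responses (KO minus WT) lay between -0.42 for Itga4 (95% interval -1.79 to 0.95) and 0.41 for Itgae (-1.01 to 1.83). For Itgb7 it was 0.29 (-0.35 to 0.93) and for Itga7 0.22 (-0.78 to 1.22). These intervals were too wide to say whether the rises of Itga4, Itgb3 or Itgb7 were alike in the 2 genotypes. With the block the interval of Itgb7 was 0.016 to 0.563 (limma adjusted p = 0.427). Those of Itga4 (-1.035 to 0.196) and Itgb3 (-0.768 to 0.049) included 0.

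Ratios of subunits were taken within each library, at one depth. They compare mRNA per exon length and say nothing of receptors on the surface, and they were computed with the members' values known, so they carry no test. Itga4 per Itgb1 was 0.00698 ± 0.0016 (SD, n = 3) in WT against 0.0174 ± 0.00197 with PI3Kdi, while in KO it was 0.00322 ± 0.00126 without and 0.00765 ± 0.00154 with PI3Kdi. The groups with and without PI3Kdi did not overlap in either genotype, and the KO+PI3Kdi range overlapped that of WT without PI3Kdi.

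The αv and β3 chains of the vitronectin receptor separated all 4 groups in their ratio. Itgav per Itgb3 was 4.36 ± 0.474 in WT, 2.60 ± 0.482 in WT+PI3Kdi, 7.14 ± 1.01 in KO and 5.90 ± 0.345 in KO+PI3Kdi. The LFA-1 chains, Itgal per Itgb2, rose from 0.759 ± 0.0659 to 0.93 ± 0.12 in WT and from 0.725 ± 0.0395 to 0.887 ± 0.04 in KO. Itgb7 per Itgb1, beta chains that compete for α4, was 1.45 ± 0.465 and 1.89 ± 0.845 in the WT groups and 1.69 ± 0.842 and 3.20 ± 1.55 in the KO groups, with overlap between the groups with and without PI3Kdi.

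**Figure D4:**
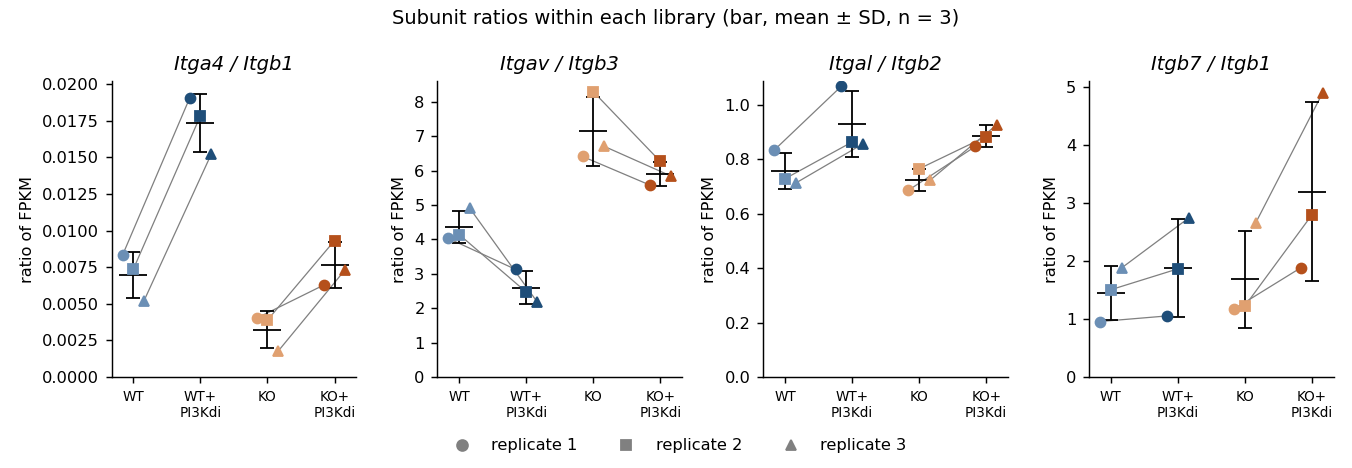
Ratios of FPKM of subunits within each library by group (KO, FOXO1-GFP KO), with bars for the mean ± SD of 3 libraries and lines joining libraries of the same genotype and replicate number. Itga4 / Itgb1 and Itgal / Itgb2 rise with PI3Kdi in all 6 pairs and Itgav / Itgb3 falls in all 6.

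Of 18 further integrin subunits, 11 were in the table. Itga6, the laminin-binding α6, was the highest of them at 1.49 to 4.19 FPKM, followed by Itga3 (0.95 to 2.10 FPKM), Itga5 (1.09 to 2.01 FPKM) and Itgb5 (0.65 to 1.97 FPKM). Itga2 (0.29 to 1.49 FPKM), Itga1 (0.51 to 1.03 FPKM) and Itga9 (0.38 to 0.84 FPKM) were near the level of Itga7 in WT. Itga2b (0.09 to 0.38 FPKM), Itga10 (0.10 to 0.33 FPKM), Itgax (0.10 to 0.32 FPKM) and Itgam (0.02 to 0.16 FPKM) were lowest, the last of these the myeloid partners of β2.

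Itga2 and Itgb5 were called lower in KO with PI3Kdi, and their WT and KO libraries did not overlap with or without the inhibitor. Over all genes this share was 14.8% with and 10.3% without it. Without PI3Kdi neither gene was called, at -0.47 for Itga2 (limma adjusted p = 0.905) and -0.86 for Itgb5 (adjusted p = 0.141). There the lowest WT library of Itga2 was at 0.65 FPKM and the highest KO library at 0.64 FPKM. Itga2, the collagen-binding α2, was 1.19 ± 0.283 FPKM in WT+PI3Kdi and 0.39 ± 0.0872 FPKM in KO+PI3Kdi, a difference of -1.39 ± 0.25 (adjusted p = 0.0177). Itgb5, which pairs with αv, was 1.56 ± 0.271 and 0.69 ± 0.0346 FPKM, a difference of -1.06 ± 0.21 (adjusted p = 0.0303, and 0.207 with the block). The call of Itga2 held in 9 of 12 fits that left out a library and was lost without WT+PI3Kdi replicate 1 or 3 or KO+PI3Kdi replicate 3 (adjusted p up to 0.0797), and that of Itgb5 held in 7 and was lost without 5 of the 6 libraries compared, all but WT+PI3Kdi replicate 1 (up to 0.132). With PI3Kdi the median difference of the 11 was -0.18, as was that of the 9 members, with 0.01 over all genes. Without PI3Kdi these medians were -0.095, -0.027 and -0.012.

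Of 36 genes for integrin activation and adaptors, 32 were in the table and 1 was called, Fgr, a SRC-family kinase, at 6.29 ± 1.08 FPKM in KO+PI3Kdi and 3.15 ± 0.263 FPKM in WT+PI3Kdi (0.97 ± 0.14, adjusted p = 0.00545). The median of the 32 was 0.02 in that comparison and -0.03 for PI3Kdi in both genotypes, where the medians of all genes were -0.04 in WT and -0.02 in KO.

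Of 26 integrin ligands, 10 were in the table. Spp1, which encodes osteopontin, a ligand of αvβ3 and α4β1, was 621 ± 94.7 FPKM in WT, 321 ± 37.4 in WT+PI3Kdi, 909 ± 40.3 in KO and 523 ± 33 in KO+PI3Kdi. It was called lower with PI3Kdi in WT (-0.95 ± 0.14, adjusted p = 0.0405) and higher in KO with PI3Kdi (0.71 ± 0.14, adjusted p = 0.0332). Without the block the first call held in 1 of 12 fits that left out a library, that without WT replicate 1, and the second in 3, those without WT replicate 1 or 3 or KO replicate 3, with adjusted p-values up to 0.263 and 0.136 in the others. With the block Spp1 (-0.80) and F11r (-0.81), which encodes the adhesion molecule JAM-A, were also called lower with PI3Kdi in KO. F11r was near the pseudocount of 0.1 FPKM, at 0.20 to 0.28 FPKM in KO and 0.04 to 0.15 FPKM in KO+PI3Kdi.

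Of 15 genes of the TGF-β pathway, 14 were listed, and Smad7, an inhibitor of the pathway and one of its targets, was called lower in KO with PI3Kdi (-0.66 ± 0.13, adjusted p = 0.0242). That call held in 7 of 12 fits that left out a library and was lost without any of the 6 libraries compared but WT+PI3Kdi replicate 2 (adjusted p up to 0.115), and the median of the 14 was -0.33. With the block Lrrc32 was called too (-0.84), and for PI3Kdi Tgif1 rose in WT (0.73) and Tgfb3 in KO (1.24).

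Of 21 other homing and adhesion receptors, 18 were listed. In KO with PI3Kdi, Cxcr6 (-1.65 ± 0.27, adjusted p = 0.00949) and Cxcr3 (-1.06 ± 0.10, adjusted p = 0.000832), chemokine receptors of effector T cells, were called lower, and Cd6 (0.70 ± 0.12, adjusted p = 0.0137), a receptor for ALCAM, was called higher. The calls of Cxcr6 and Cxcr3 with PI3Kdi held in all 12 fits that left out a library and that of Cd6 in 8, lost without replicate 2 or 3 of either treated group (adjusted p up to 0.0687). With the block Cxcr6 was called lower in KO without PI3Kdi as well (-1.26 ± 0.21, adjusted p = 0.0352). For PI3Kdi the 18 genes had a median of 0.27 in WT and 0.25 in KO. In limma-trend no gene of the list was called for PI3Kdi without the block, whereas voom on estimated reads called S1pr1 in WT (1.61, adjusted p = 0.0486). Voom also called S1pr1 lower in KO than in WT with PI3Kdi (-1.305, adjusted p = 0.0371), as did voom with the block (-1.37, adjusted p = 0.0189). With the block 6 were called higher in WT, among them S1pr1 (1.53), Klf2 (1.11) and Cxcr4 (0.95), and 3 in KO, S1pr1 (0.95), Klf2 (0.82) and Cxcr4 (0.73). The study, which fitted counts, listed S1pr1, Klf2 and Cxcr4 among mRNAs raised by PI3Kdi in WT and lower in treated KO than in treated WT. S1pr1 guides T cells out of tissue, and Klf2, the transcription factor on this list, drives its expression.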

How the data were processed

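RNA of 12 CTL libraries was sequenced as paired-end reads of 75 bases from a stranded mRNA kit. Per the labels and the study's methods, the authors aligned reads to GRCm38.p6 with STAR (version 2.7.1a), counted them per gene with the Ensembl annotation, removed genes of low counts, scaled by TMM and deposited FPKM values over total exon length. The filter means that an unlisted gene was not analysed here.

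Samples were grouped by their labels into 4 groups of 3. Values were tested as log2(FPKM + 0.1), without a further filter, in limma (version 3.58.1, R 4.3.3, trend) with 4 group means over 12 libraries. Calls needed a change over 1.5-fold and an adjusted p (Benjamini-Hochberg, 13283 genes) under 0.05. Reads per gene were estimated from the spacing of the FPKM values and GENCODE M21 exon lengths. In genes of 400 to 800 bases not used for this, 98.5 to 99.3% of values came out as whole reads (7.66 to 28.5% by chance), and the recovered depths served an alternative fit with voom. The exon lengths matched 13270 genes.

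The replicate numbers are the labels' biological replicates. Deviations from the group means of same-numbered libraries correlated at 0.59 to 0.84 within genotype (6 pairs) and at -0.50 to 0.73 across genotypes (12 pairs). The numbers were therefore taken to pair libraries within genotype only, which the labels do not state. Blocked values are given beside the members' results where they change a call.

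The members and gene lists were chosen with earlier results of these data known. All 9 members are named, with every listed gene family by its counts and its called genes, and the 5 genes most like Itga7 and 1 most like each other member among genes whose mean reached 1 FPKM in a group. The fit was checked on simulated data. Figures were drawn with matplotlib (version 3.10.9). Some genes of the lists are not reported here by name.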

Additional observations from a re-analysis of the deposited data

How the results depend on the processing

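At 2 decimals, no member value changed sign with a pseudocount of 1 FPKM, the low-value filter, median centring, either block or voom. The median of genes with at least 1 FPKM moved by at most 0.04 under median centring. The filter at a mean of 1 FPKM kept 7 of the 9 members, without Itga7 and Itgae, so that 0 members were called in both genotype comparisons.

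The replicate block within genotype raised the genes called from 13 to 342 for PI3Kdi in WT, from 6 to 370 in KO and from 0 to 3 for the difference of responses. It took the members called from 0 to 1 for PI3Kdi in each genotype and from 1 to 0 for genotype without PI3Kdi, and changed no other call of a member. With the block shared by all groups the genes called were 77, 63, 438 and 165 for PI3Kdi in WT, in KO and genotype with and without PI3Kdi, with 3 members for genotype with PI3Kdi, Itga4 and Itgb3 beside Itga7. With voom on estimated reads 22 genes were called for PI3Kdi in WT. With voom and the block within genotype these were 355 in WT, 445 in KO and 6 for the difference, with 1 member for PI3Kdi in each genotype and 0 in both genotype comparisons.

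Leaving out each library in turn gave 1 to 10 genes for PI3Kdi in WT, 0 to 4 in KO, 111 to 196 for genotype with and 8 to 41 for genotype without PI3Kdi. The fewest were, in this order, without WT replicate 2 or WT+PI3Kdi replicate 1, without WT replicate 3 or any KO library but KO+PI3Kdi replicate 1, without KO+PI3Kdi replicate 3 and without KO replicate 2. The members called were 1 to 2 for genotype with PI3Kdi. Of 45 member changes, 17 changed sign in some of these fits, none over 0.30 in size. For PI3Kdi in WT the log2 changes ran from -0.66 to 0.06 (Itga7), -0.26 to 0.15 (Itgal), -0.09 to 0.68 (Itgae), -0.48 to 0.03 (Itgav) and -0.44 to 0.09 (Itgb1), and in KO from -0.11 to 0.08 (Itga7) and -0.29 to 0.07 (Itgav). For genotype with PI3Kdi they ran from -0.30 to 0.02 (Itgal), -0.23 to 0.53 (Itgae) and -0.20 to 0.03 (Itgb2), and without it from -0.17 to 0.18 (Itgal), -0.50 to 0.09 (Itgae), -0.14 to 0.30 (Itgav) and -0.07 to 0.19 (Itgb2). For the difference of responses they ran from -0.09 to 0.63 (Itga7), -0.36 to 0.05 (Itgal) and -0.14 to 0.38 (Itgav). The cause was not tested. The 4 to 13 reads behind Itga7 in each KO library limit its fold. Leaving out libraries in the blocked fit was chosen after seeing the data.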
